A study of Homo sapiens with 9 samples.

Results

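The genes described here encode the nuclear subunits of the mitochondrial respiratory chain and ATP synthase. They were taken from the gene symbols, as the protein-coding genes named NDUFA, NDUFB, NDUFC, NDUFS or NDUFV with a number, NDUFAB1, SDHA to SDHD, UQCR, CYC1, COX4 to COX8 and ATP5F, ATP5M or ATP5P. This gave 87 of 60617 genes in the count tables, 19892 of which are protein-coding. Complex I had 37 of them, complex II 4, complex III 10, complex IV 18 and complex V 18, with NDUFA4 counted in complex IV. The study sequenced RNA from PC-3, an established human prostate cancer cell line, after 5 days of treatment. Control cells received vehicle (Ctrl, n = 3). The Dec group received 1 µM decitabine (n = 3), and the Dec_Sam group 1 µM decitabine together with 200 µM S-adenosylmethionine (SAM, n = 3). No source used here says that replicates came from separate cultures, so p-values measure the spread between these libraries.

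Complex I (NADH dehydrogenase) and complex II (succinate dehydrogenase) feed electrons from NADH and succinate into the membrane. Complex III passes them to cytochrome c and complex IV (cytochrome c oxidase) to oxygen, and complex V (ATP synthase) makes ATP from the proton gradient that complexes I, III and IV build. Most subunits are encoded in the nucleus and imported, while a small core is encoded by mitochondrial DNA. Decitabine is a cytidine analogue that traps DNA methyltransferases and lowers DNA methylation, and SAM is the methyl donor of those enzymes.

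Each library held between 21934307 and 22489684 estimated counts. The epithelial keratin genes KRT8 and KRT18 and the mesenchymal gene VIM had counts in all groups, and KLK3 had 0 counts, while CDH1 was low in controls (mean 1.87 CPM, read counts scaled to a common library size). These markers moved with treatment. From Ctrl to Dec and Dec_Sam, CDH1 went to 14.4 and 16.9 CPM, KRT8 from 120 to 264 and 208, and VIM from 1262 to 590 and 510. KRT18 went the other way from KRT8, from 426 to 358 and 316 CPM. The epithelial gene EPCAM, at 17.3, 20.4 and 21.9 CPM, was not called in either treatment against Ctrl. Markers of other cell types were higher in treated cells. The summed level of 3 fibroblast genes was 1.39 to 1.85 CPM in Ctrl, 12.2 to 14.0 in Dec and 13.7 to 17.5 in Dec_Sam. That of 3 leukocyte genes, nearly all from CD68, was 38.2 to 47.9, 222 to 299 and 104 to 182, with CD3E at or near 0. That of 2 endothelial genes, nearly all from PECAM1, was 9.83 to 10.5, 30.1 to 41.2 and 36.1 to 43.5, with CDH5 near 0. Their part in the results below was not tested.

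The mRNA of most respiratory chain subunits was lower after decitabine. Of the 83 members with enough counts to be tested, 66 (79.5%) fell and 5 (6.02%) rose in Dec against Ctrl by edgeR's quasi-likelihood test with Benjamini-Hochberg adjustment over 18532 genes. Of all genes tested, 32.5% fell and 36.3% rose. The median log2 fold change was -0.56 over the members and 0.03 over all genes. In Dec_Sam against Ctrl, 51 members (61.4%) fell and 10 (12%) rose, beside 31.3% and 35.9% of all genes, and the median was -0.31 beside 0.05. Of the rises, 4 in each comparison were tissue isoforms of complex IV that passed the count filter only through the treated groups. Without them, 1 of 79 members rose and 66 fell in Dec (median -0.56), and 6 rose and 51 fell in Dec_Sam (median -0.37). Both comparisons use the same 3 control libraries. The 4 members that were not tested were UQCRHL, COX4I2, COX6A2 and ATP5MGL, which had few or no counts in any library.

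CPM values here are scaled by TMM, a correction for library composition, so they are levels relative to the rest of the RNA. In bulk RNA, fewer cells and less RNA per cell cannot be told apart. The TMM factors were 0.8948 to 0.9021 in Ctrl and 1.0329 to 1.0783 in treated libraries. With library size as the only scaling, 52 members fell and 9 rose with decitabine, and 34 fell and 22 rose with the combination. Of all genes, 20.2% fell and 47.7% rose with decitabine under that scaling, and 20.8% and 46.9% with the combination. It also moved the median of all genes to 0.28 and 0.27 and the median of the members to -0.31 and -0.09.

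Summed over all members, the level was 18595, 18540 and 17619 CPM in Ctrl, 12559, 12134 and 11800 in Dec, and 15174, 13850 and 12106 in Dec_Sam. The 3 groups' means were thus 18251 ± 548, 12164 ± 380 and 13710 ± 1539 (SD, n = 3), or 66.6% and 75.1% of Ctrl in the treated groups. All Dec and Dec_Sam libraries lay below all controls, and Dec_Sam replicate 3 lay within the range of the Dec libraries. Relative to Ctrl, complex III was at 57.1% in Dec and 65.1% in Dec_Sam, and complex IV at 77.0% and 90.6%. Such sums weigh genes by their level. CYC1 alone gave 960 of the 2429 CPM of complex III in Ctrl, 409 of 1387 in Dec and 489 of 1581 in Dec_Sam. The median log2 fold change of complex III genes in Dec was -0.56, the same as over all members. Complex II was at 65.9% and 64.2%, the only complex whose mean sum was lower in Dec_Sam than in Dec. Its libraries overlapped, at 572, 539 and 516 CPM in Dec and 575, 525 and 484 in Dec_Sam.

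**Figure D1:**
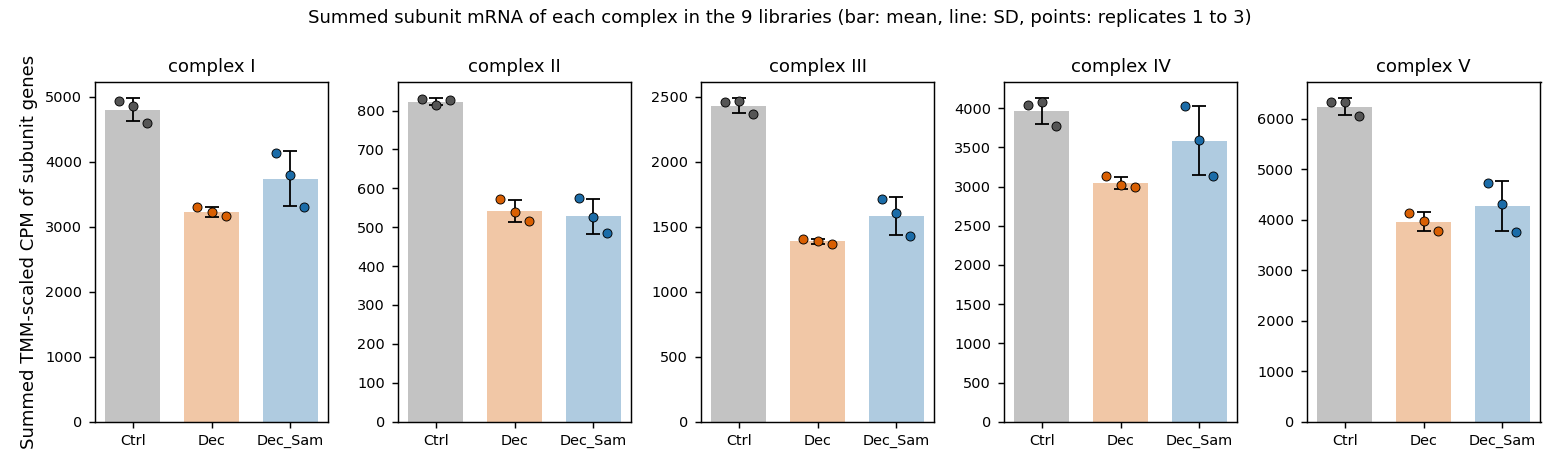
Summed TMM-scaled CPM of the subunit genes of each complex (vertical axis) in Ctrl, Dec and Dec_Sam, with a bar for the mean, a line for the SD and a point for each of the 3 libraries. The sum of complex III, a large part of it from CYC1, fell to 57.1% of Ctrl in Dec. The Dec_Sam libraries were spread more widely than those of the other groups.

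**Figure D2:**
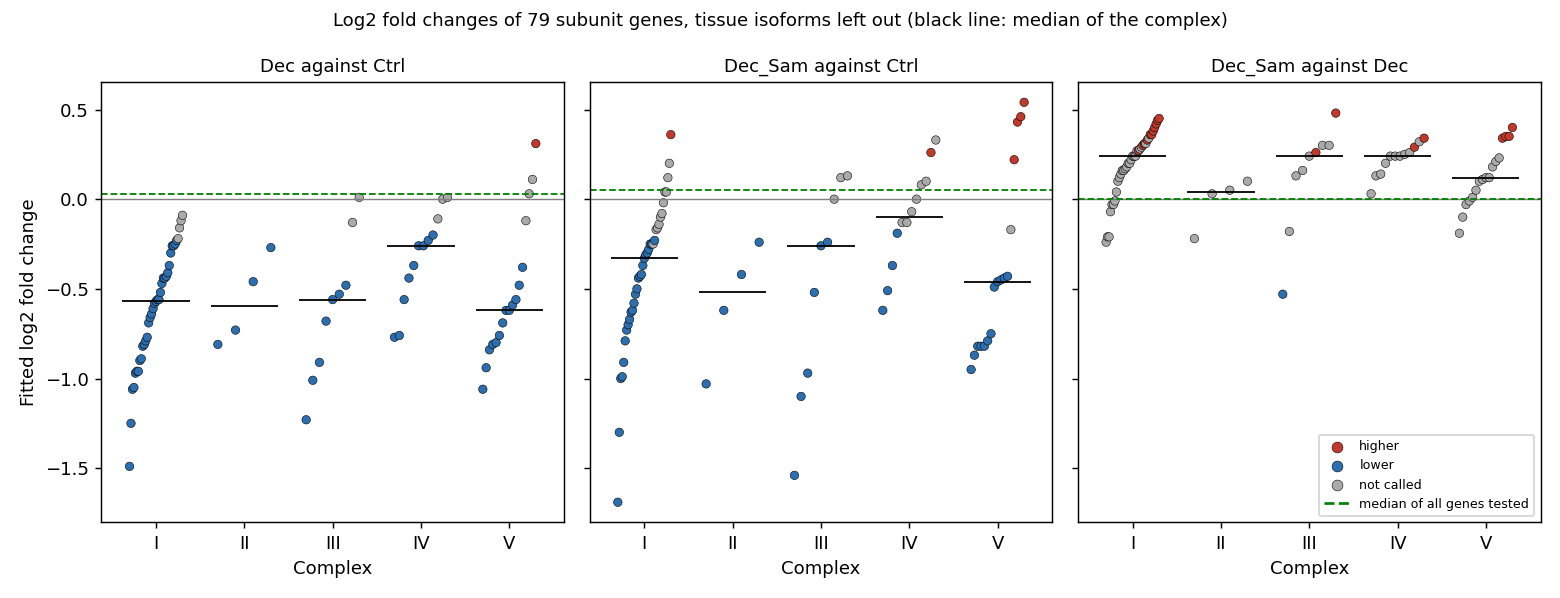
Fitted log2 fold change (vertical axis) of each of 79 subunit genes by complex, without the tissue isoforms, in the 3 comparisons. Red and blue points passed the test, black lines are medians of a complex and the dashed line is the median of all genes tested. Complexes I, II, III and V had medians of -0.57, -0.59, -0.56 and -0.62 in Dec against Ctrl.

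Of the 37 complex I genes, 33 fell in Dec and none rose, with a median log2 fold change of -0.57. All 7 nuclear core subunits, most of which hold the flavin and iron-sulfur centres or bind quinone, were among them. NDUFS1, the largest of these, was at 421, 379 and 396 CPM in Ctrl, 235, 205 and 176 in Dec and 207, 197 and 197 in Dec_Sam. NDUFS7, which carries the last iron-sulfur centre before quinone, was at 96.7, 91.4 and 81.0 CPM in Ctrl, 44, 41.2 and 44.3 in Dec and 41.5, 36.4 and 31.6 in Dec_Sam. Neither gene's treated libraries overlapped the controls. The log2 fold changes in Dec and Dec_Sam were -0.96 and -0.99 for NDUFS1 and -1.06 and -1.30 for NDUFS7 (SE 0.09 to 0.10, edgeR adjusted p at most 4.9e-07). Among other core genes, the log2 fold changes in Dec were -0.89 (NDUFS8), -0.64 (NDUFS3), -0.47 (NDUFV1) and -0.41 (NDUFV2). NDUFV2, which carries an iron-sulfur centre beside the flavin subunit NDUFV1, did not pass the test in Dec_Sam against Ctrl (-0.25, edgeR adjusted p = 0.061), but did without Dec_Sam replicate 1 (-0.42, adjusted p = 0.00096).

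Accessory subunits of complex I surround the core. The largest fall was that of NDUFA7, at 62.7, 58.1 and 57.6 CPM in Ctrl, 22.5, 18.6 and 22.5 in Dec and 23.6, 16.4 and 15.2 in Dec_Sam. Its log2 fold changes were -1.49 (SE 0.14, edgeR adjusted p = 9.6e-07) and -1.69 (SE 0.14, 3.5e-07). The exons of NDUFA7 overlap a read-through gene on the same strand and RPS28 on the opposite strand, so its count depends on how reads were shared. NDUFA9, an accessory subunit near the quinone site, was at 66.6, 65.6 and 64.8 CPM in Ctrl, 30.1, 27.0 and 25.7 in Dec and 35.7, 33.5 and 29.0 in Dec_Sam. The groups of treated libraries were below Ctrl without overlap. Of 30 accessory genes, 26 fell in Dec and 19 in Dec_Sam, and 1, NDUFB3, rose in Dec_Sam.

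All 4 genes of complex II, which also works in the citric acid cycle, fell in both treatments. SDHA, the flavoprotein that oxidises succinate, was at 322, 347 and 357 CPM in Ctrl, 214, 201 and 172 in Dec and 182, 166 and 154 in Dec_Sam. The iron-sulfur subunit SDHB was at 179, 183 and 181 CPM in Ctrl, 118, 109 and 102 in Dec and 132, 113 and 108 in Dec_Sam. The groups of treated libraries lay below the controls for both catalytic genes, with log2 fold changes in Dec of -0.81 and -0.73 (edgeR adjusted p = 2e-06 and 2.7e-06). The membrane anchors SDHC and SDHD fell by less, with -0.46 and -0.27 in Dec and -0.42 and -0.24 in Dec_Sam. The SDHD call in Dec_Sam did not hold without Ctrl replicate 1 (adjusted p = 0.061) or Dec_Sam replicate 3 (0.051), and neither SDHD call held with library size alone. Pseudogene copies of SDHA took 12.9% of the SDHA family's counts in Ctrl, 17.5% in Dec and 19.0% in Dec_Sam, and summing them changed no call.

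In complex III, 7 of 9 tested genes fell in Dec and 6 in Dec_Sam. CYC1, cytochrome c1, was at 999, 963 and 918 CPM in Ctrl, 393, 419 and 414 in Dec and 527, 494 and 446 in Dec_Sam. The 3 groups did not overlap, and the log2 fold change was -1.23 in Dec (SE 0.08, edgeR adjusted p = 8.2e-09) and -0.97 in Dec_Sam (SE 0.08, 7.5e-08). UQCRC2, a core protein of the complex, was at 217, 215 and 212 CPM in Ctrl, 117, 109 and 94.5 in Dec and 72.6, 70.5 and 78.5 in Dec_Sam. It was thus lower in Dec_Sam than in Dec in every library, with log2 fold changes against Ctrl of -1.01 and -1.54. Its partner UQCRC1 fell to log2 fold changes of -0.91 and -1.10, and the Rieske iron-sulfur protein gene UQCRFS1 to -0.68 and -0.52. UQCRFS1 shares 10.7%, 10.2% and 9.76% of its family's counts in Ctrl, Dec and Dec_Sam with pseudogene copies.

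In complex IV, 12 of the 18 genes are the broadly expressed supernumerary subunits, and 9 of these fell in Dec while none rose. COX4I1, the regulatory subunit, was at 526, 516 and 519 CPM in Ctrl, 325, 321 and 278 in Dec and 394, 336 and 288 in Dec_Sam. Its treated libraries lay below the controls (log2 fold changes -0.76 and -0.62). In Dec_Sam, 4 of the 12 fell, close to the share of all genes that fell there (31.3%). COX6C rose (log2 fold change 0.26, edgeR adjusted p = 0.016). This rise was chosen for mention after its values were seen and did not pass without Ctrl replicate 1 or 3 or Dec_Sam replicate 1 (adjusted p = 0.067, 0.068 and 0.096). The median of the 12 genes was -0.26 in Dec and -0.10 in Dec_Sam. Over all 16 tested genes of complex IV, tissue isoforms included, it was -0.21 and 0.04, and with library size alone 0.03 and 0.26.

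The 4 tissue-restricted complex IV isoforms with counts moved the other way. COX7A1 is the heart and skeletal muscle isoform, and COX6B2, COX7B2 and COX8C are testis isoforms. The windows from 250 bases before to 50 bases after the RefSeq start (GRCh38.p14) are shown to set 3 of these promoters beside those of their broadly expressed partners, with CG dinucleotides in capitals. They lie at chr14:93346932-93347231 (COX8C, plus strand), chr11:63974370-63974669 (COX8A, plus strand), chr4:46909196-46909495 (COX7B2, minus strand), chrX:77899218-77899517 (COX7B, plus strand), chr19:55354670-55354969 (COX6B2, minus strand) and chr19:35648073-35648372 (COX6B1, plus strand).
COX8C: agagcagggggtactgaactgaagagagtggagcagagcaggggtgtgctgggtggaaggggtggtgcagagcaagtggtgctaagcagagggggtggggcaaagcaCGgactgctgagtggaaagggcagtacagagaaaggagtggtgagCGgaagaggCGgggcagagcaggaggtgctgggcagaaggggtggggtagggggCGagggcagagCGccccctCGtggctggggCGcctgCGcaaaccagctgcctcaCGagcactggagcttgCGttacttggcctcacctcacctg
COX8A: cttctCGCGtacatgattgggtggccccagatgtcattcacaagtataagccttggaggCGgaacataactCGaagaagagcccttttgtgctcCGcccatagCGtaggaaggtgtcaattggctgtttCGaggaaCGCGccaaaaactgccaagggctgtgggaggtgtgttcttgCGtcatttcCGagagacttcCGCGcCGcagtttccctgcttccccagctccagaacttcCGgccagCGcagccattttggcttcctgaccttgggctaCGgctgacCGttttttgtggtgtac
COX7B2: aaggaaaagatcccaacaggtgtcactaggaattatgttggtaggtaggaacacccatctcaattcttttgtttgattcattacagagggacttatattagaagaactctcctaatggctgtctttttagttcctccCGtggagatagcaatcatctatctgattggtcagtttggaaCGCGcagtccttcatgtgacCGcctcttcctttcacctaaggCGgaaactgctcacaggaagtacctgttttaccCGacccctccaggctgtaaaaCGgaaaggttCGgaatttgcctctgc
COX7B: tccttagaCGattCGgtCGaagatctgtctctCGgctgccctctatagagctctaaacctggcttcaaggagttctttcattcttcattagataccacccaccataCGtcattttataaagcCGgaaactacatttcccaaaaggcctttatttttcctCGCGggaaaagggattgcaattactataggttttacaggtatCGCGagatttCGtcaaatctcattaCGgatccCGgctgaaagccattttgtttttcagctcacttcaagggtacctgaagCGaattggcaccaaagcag
COX6B2: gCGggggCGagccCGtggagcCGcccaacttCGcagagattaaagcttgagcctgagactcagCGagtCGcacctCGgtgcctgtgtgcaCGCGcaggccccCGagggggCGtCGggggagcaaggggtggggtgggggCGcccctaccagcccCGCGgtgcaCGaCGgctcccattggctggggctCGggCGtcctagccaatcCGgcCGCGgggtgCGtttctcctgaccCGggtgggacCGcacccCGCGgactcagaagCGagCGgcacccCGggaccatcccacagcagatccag
COX6B1: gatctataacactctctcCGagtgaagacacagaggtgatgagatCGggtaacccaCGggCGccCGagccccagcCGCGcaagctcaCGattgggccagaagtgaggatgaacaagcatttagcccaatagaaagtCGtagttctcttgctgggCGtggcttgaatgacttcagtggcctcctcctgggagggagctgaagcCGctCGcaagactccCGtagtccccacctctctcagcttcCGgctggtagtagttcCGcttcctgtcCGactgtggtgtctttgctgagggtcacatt
The windows of COX8C, COX7B2 and COX6B2 held 10, 8 and 31 CG dinucleotides, and those of COX8A, COX7B and COX6B1 held 18, 14 and 16. The median over 15345 promoters of protein-coding genes was 22. DNA methylation at these windows was not analysed here.

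COX7A1 had 0 counts in all 3 Ctrl libraries and was at 1.61, 1.90 and 2.54 CPM in Dec and 2.26, 1.94 and 2.30 in Dec_Sam. Taking 3 counts over the control group as the floor, it was at least 40.6-fold higher in Dec and 43.6-fold higher in Dec_Sam. COX7B2 likewise had 0 counts in Ctrl, with 1.82, 2.28 and 3.68 CPM in Dec and 2.74, 1.58 and 2.30 in Dec_Sam. It was at least 52.2-fold and 44.5-fold higher. These bounds describe the counts and are not a test, since both genes passed the count filter only through the treated groups.

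COX8C was at 0.0993, 0.100 and 0.0987 CPM in Ctrl, 3.30, 4.34 and 5.29 in Dec and 5.70, 4.88 and 4.47 in Dec_Sam. COX6B2 was at 0.199, 0.100 and 0.0494 CPM in Ctrl, 1.52, 2.32 and 1.86 in Dec and 1.74, 1.58 and 2.85 in Dec_Sam. All treated libraries exceeded all controls. The control values rest on 2 counts in each library for COX8C and on 4, 2 and 1 counts for COX6B2, beside 78 to 131 and 36 to 67 counts in treated libraries. No fold or p-value from the test is given, since these genes entered it only through the treated groups. The exons of COX6B2 overlap those of another gene. None of the 4 isoforms passed the test between Dec_Sam and Dec.

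The broadly expressed partners stayed far above them. In Ctrl, COX7B was at 333, 389 and 371 CPM, COX8A at 302, 301 and 268 and COX6B1 at 171, 197 and 191. COX7B fell in Dec (log2 fold change -0.77, edgeR adjusted p = 0.00055). COX6B1 gave 0.01 (0.95). COX8A and COX7A2 fell by little (-0.20 and -0.23, adjusted p = 0.045 and 0.019) and turned to 0.05 and 0.01 with library size alone. Neither call held without Ctrl replicate 1 or 2, where the adjusted p was 0.11 and 0.12 for COX8A and 0.063 and 0.062 for COX7A2. Without Dec replicate 1 or 2 or Dec_Sam replicate 2, that of COX8A was 0.099, 0.12 and 0.055. Beside COX7A1, the summed level of the muscle markers MYH7, CKM and ACTN2 was 0 in Ctrl and 1.73 to 3.09 CPM in treated libraries. CKM and ACTN2 rose and MYH7 was at or near 0, and their part in the rise of COX7A1 was not tested.

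**Figure D3:**
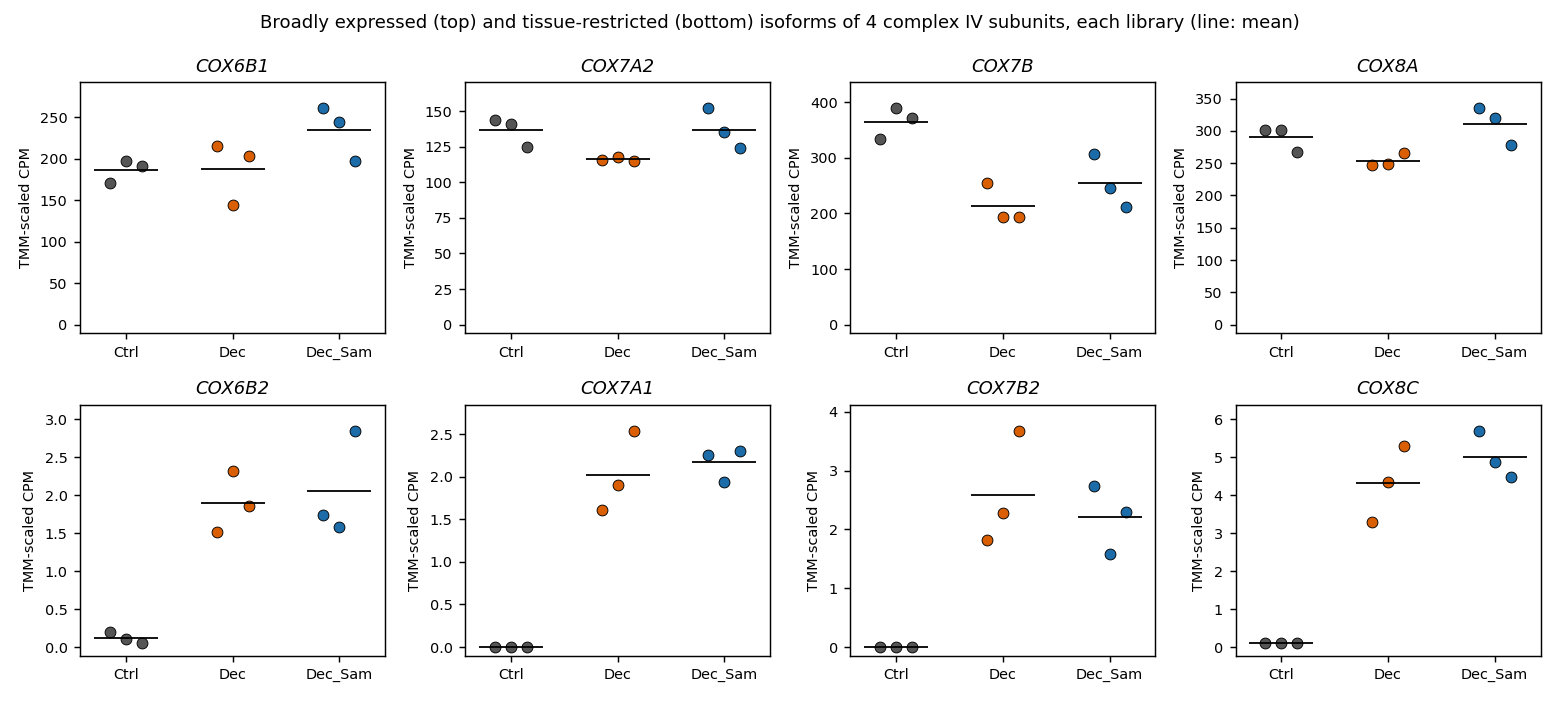
TMM-scaled CPM (vertical axes, each with its own scale from 0) in the 3 libraries of each group for 4 broadly expressed complex IV subunits (top) and their tissue-restricted isoforms (bottom), with a line for the mean. The isoforms were at or near 0 in Ctrl and reached 5.70 CPM at most.

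In complex V, 13 of 17 tested genes fell in Dec and 12 in Dec_Sam. ATP5F1B, the catalytic beta subunit, was at 2232, 2281 and 2239 CPM in Ctrl, 1350, 1303 and 1213 in Dec and 1396, 1268 and 1166 in Dec_Sam. ATP5F1C, the gamma subunit of the rotor, was at 125, 124 and 125 CPM in Ctrl, 64.6, 59.9 and 54.3 in Dec and 74.5, 65.6 and 53.5 in Dec_Sam. The treated groups did not overlap the controls, and the log2 fold changes in Dec were -0.80 and -1.06 (SE 0.08 and 0.10). The alpha subunit gene ATP5F1A gave -0.69 in Dec and -0.79 in Dec_Sam. The 3 genes for the identical c-ring subunit, ATP5MC1, ATP5MC2 and ATP5MC3, fell to -0.59, -0.62 and -0.94 in Dec and -0.49, -0.44 and -0.82 in Dec_Sam.

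The 5 tested small membrane subunits of complex V were divided in Dec_Sam against Ctrl. ATP5MK, ATP5MJ and ATP5MG rose, while ATP5ME (log2 fold change -0.75, edgeR adjusted p = 1.8e-05) and ATP5MF (-0.43, 0.00062) fell. ATP5MK, a small membrane subunit, was at 59.2, 52.4 and 49.1 CPM in Ctrl, 64.1, 67.2 and 67.5 in Dec and 83.5, 81.7 and 68.8 in Dec_Sam, without overlap between groups. Its log2 fold changes were 0.31 in Dec (SE 0.09, edgeR adjusted p = 0.007) and 0.54 in Dec_Sam (SE 0.09, 9.1e-05). The exons of ATP5MK overlap those of TAF5 on the opposite strand, which had means of 216, 375 and 492 counts in Ctrl, Dec and Dec_Sam. The part of this overlap in the rise was not tested. ATP5MJ, also in the membrane part, and ATP5F1E, the epsilon subunit, rose in Dec_Sam by log2 fold changes of 0.43 and 0.46 and were not called in Dec (0.03 and 0.11). ATP5MG gave 0.22 in Dec_Sam (adjusted p = 0.03), which did not hold without Ctrl replicate 2 or 3 (0.093 and 0.10) or Dec_Sam replicate 1 or 2 (0.16 and 0.11). ATP5MK, ATP5F1E, ATP5MG, ATP5ME and ATP5MF were chosen for mention after their values were seen.

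The addition of SAM to decitabine was compared directly in Dec_Sam against Dec. Of 83 members, 19 (22.9%) were higher and 1 (1.2%) was lower, beside 7.67% and 8.02% of all genes, and the median log2 fold change was 0.20 beside 0.00. Complex I gave 11 of the 19, all accessory subunits (11 of 30), while none of its 7 core genes was called. Complexes III and IV gave 2 each, complex V 4 and complex II none. The count rested on few libraries. It was 45 without Dec_Sam replicate 3, 5 without Dec_Sam replicate 2, 8 without Dec_Sam replicate 1, 7 without Dec replicate 2 and 13 without Dec replicate 1. The share of all genes called higher moved as well, to 10.9%, 2.01%, 3.11%, 2.15% and 4.46% in the same order. The median member stood at log2 values of -0.22, -0.32 and -0.53 relative to the control mean in Dec_Sam replicates 1, 2 and 3, and at -0.52, -0.56 and -0.57 in the Dec libraries.

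UQCRH, the hinge protein of complex III, was at 268, 297 and 285 CPM in Ctrl, 205, 202 and 202 in Dec and 306, 297 and 248 in Dec_Sam. NDUFB3, an accessory membrane subunit of complex I, was at 87.7, 84.0 and 94.7 CPM in Ctrl, 79.7, 81.4 and 88.4 in Dec and 123, 115 and 103 in Dec_Sam. NDUFS6, an accessory subunit that binds zinc, was at 99.4, 105 and 96.1 CPM in Ctrl, 52.5, 49.9 and 50.4 in Dec and 76.5, 72.0 and 59.2 in Dec_Sam. Dec and Dec_Sam did not overlap for these genes, the UQCRH libraries of Dec_Sam overlapped the controls and those of NDUFB3 lay above them. The differences between the treatments were 0.48, 0.45 and 0.44 on the log2 scale (SE 0.08 to 0.09, edgeR adjusted p = 0.0025, 0.0029 and 0.0057). NDUFS5 and ATP5MJ followed with 0.42 and 0.40 (adjusted p = 0.0073 and 0.0071).

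UQCRC2 was the only member called lower, with -0.53 (SE 0.08, edgeR adjusted p = 0.0015). Fitted values were below 0 for 15 members and above 0 for 68. The partner UQCRC1 was lower in Dec_Sam than in Dec without overlap but was not called (-0.18, adjusted p = 0.083). Among catalytic and redox subunits, CYC1 was higher in Dec_Sam than in Dec (0.26, adjusted p = 0.036), and this call did not hold without any 1 of 6 libraries, Ctrl replicate 2, Dec replicates 1, 2 and 3 and Dec_Sam replicates 1 and 2 (adjusted p = 0.052 to 0.13). The COX8A, ATP5F1E and ATP5MG differences (0.29, 0.35 and 0.34, adjusted p = 0.027, 0.016 and 0.015) were also lost without Dec replicate 2 or Dec_Sam replicate 1 or 2, with adjusted p from 0.06 to 0.12. That of COX8A was lost without Dec replicate 1 too (0.077).

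Members with short transcripts had larger differences between the treatments. Over 79 members without the tissue isoforms, Spearman's rho between the length of the canonical transcript and the Dec_Sam against Dec log2 fold change was -0.33, beside -0.17 over 14599 protein-coding genes. Genes are not independent replicates, all share the same libraries, and the values are given as a description. Of members under 1000 bases, 14 of 46 were higher (median 0.24), and of longer members 5 of 33 (median 0.12). Of all protein-coding genes under 1000 bases, 184 of 908 (20.3%) were higher, and of longer ones 1164 of 13691 (8.5%), with medians of 0.17 and 0.02. The part of transcript length in the members' differences was not tested.

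**Figure D4:**
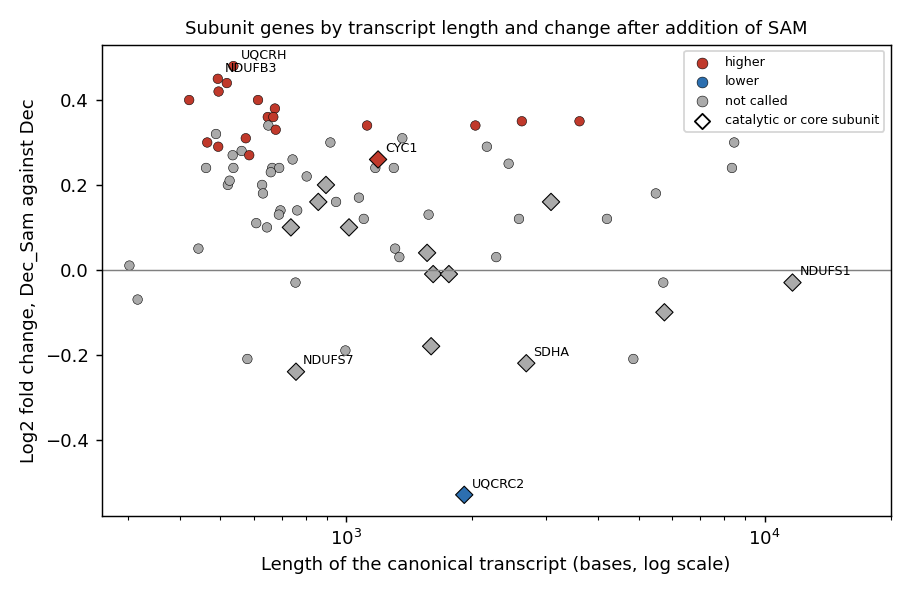
Log2 fold change in Dec_Sam against Dec (vertical axis) of 79 subunit genes by the length of their canonical transcript in bases (log scale), with diamonds for catalytic and core subunits. Of genes under 1000 bases, 14 of 46 were called higher, and UQCRC2 was the only gene called lower.

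Per kilobase of canonical transcript, the highest levels in Ctrl were those of COX6A1 (1327 CPM per kb), ATP5F1B (1280), COX7C (923) and CYC1 (806). In Dec these levels were 1024, 733, 625 and 343, and in Dec_Sam 1209, 726, 716 and 410. CYC1 thus went from rank 4 to rank 10 in both treatments, while the other 3 kept their ranks. The order depends on the length used, since with the union of exons ATP5F1B ranked 1 (1006) and COX6A1 ranked 3 (532).

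The promoters of the members were searched on both strands for exact letters of 3 motifs tied to respiratory genes, NRF1 (GCGCATGC), ETS (CCGGAAGT) and YY1 (AAGATGGC). Of 81 members without tissue isoforms, 65 had a RefSeq window, and 43.1% of these held at least 1 motif, beside 13.3% of 15345 windows of protein-coding genes. NRF1 letters were in 20% beside 4.25%, ETS in 15.4% beside 6.32% and YY1 in 16.9% beside 3.97%. COX8A held the ETS letters. Over all 87 members only 69 had a window, under 80%, so the shares cover the matched genes alone. A match is a description of the letters and not of binding.

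Genes that assemble or regulate the complexes are outside the 87 and were listed with earlier results of these data known. Of 16 complex I assembly factors, 12 fell and 1 rose in Dec, among them ECSIT (log2 fold change -1.21). For complexes II, III, IV and V, 3 of 4, 4 of 6, 14 of 25 and 4 of 4 fell, and 1 factor of complex IV rose. Of all genes tested, 32.5% fell and 36.3% rose in Dec. Between the treatments, 5, 1, 3, 4 and 2 factors of complexes I to V were higher in Dec_Sam and 2, 0, 1, 0 and 0 lower. Of all genes, 7.67% were higher and 8.02% lower there. The lower factor of complex III was UQCC1, which acts in cytochrome b assembly (-0.56, edgeR adjusted p = 0.0015). Of 13 regulators, 6 fell and none rose in Dec, with the largest falls in MYC (-0.85) and HIF1A (-1.0). The median of the 13 was -0.17. Of the factors named with the motifs above, the gene NRF1 gave -0.36 and YY1 -0.07, and YY1 was not called. In Dec_Sam against Ctrl, 5 regulators fell and 1 rose, PPARGC1A, from a mean of 0.315 to 0.767 CPM (edgeR adjusted p = 0.038). Its levels were low and overlapped, at 0.149, 0.450 and 0.346 CPM in Ctrl and 0.305, 1.14 and 0.852 in Dec_Sam. Of all genes, 31.3% fell and 35.9% rose in that comparison. The 13 subunits encoded by mitochondrial DNA all fell in Dec (median -2.61), 11 fell in Dec_Sam (median -1.02) and 12 were higher in Dec_Sam than in Dec (median 1.36).

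Counts of some members can include reads of other loci. Rows named as pseudogenes of members numbered 189 for 50 members, 7 of them with a mean of at least 10 counts. Exons of 44 members overlap those of another gene, 30 on the opposite strand, and the strand setting of the counting is not given in the sources used here.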

How the data were processed

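RNA was sequenced from 9 PC-3 libraries, 3 per group, grouped by their labels (the doses are those of the study's methods). The deposited values are estimated counts per Ensembl gene, made by the authors with kallisto (given as 0.4.6 in the submitters' processing notes) after trimming with Trim Galore 0.6.4, for GRCh38.p13. The annotation release is not given in the sources used here. The deposited log2 CPM values were not used. Of 60617 identifiers, 60357 were matched to GENCODE. Counts were rounded, filtered with filterByExpr and tested with edgeR 4.0.16 in R 4.3.3 (TMM, robust quasi-likelihood, 9 libraries, Benjamini-Hochberg, threshold 0.05). The common dispersion was 0.00977. The test was checked on simulated data. A pooled minimum share of recovered changes was not met at first and was replaced by a minimum for well-counted genes with larger changes, which was met. Members, gene lists and alternatives were chosen with earlier results of these data known. Members were named when they had the 4 largest called changes in each direction of a comparison or the 6 smallest adjusted p between the treatments, or were isoform, catalytic or core genes. Alternatives were other scalings, filters and tests (DESeq2 1.42.0, voom of limma 3.58.1), the 6 libraries compared, the replicate block, summed copies and leaving out each library. Values of a few single genes are left out of this text.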

Additional observations from a re-analysis of the deposited data

How the results depend on the processing

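Every count and median over all members kept its direction under DESeq2 size factors, voom and limma, a mean of at least 10 counts, the 6 libraries compared and summed copies. With library size alone, members called higher numbered 9 in Dec and 22 in Dec_Sam against Ctrl, those lower in Dec_Sam than in Dec 3, and the medians over all members were -0.31 and -0.09. The complex IV median in Dec then turned to 0.03, COX7A2 to 0.01, COX8A to 0.05 and COX6C to 0.24 (adjusted p = 0.89, 0.58 and 0.015 for the genes, edgeR), and NDUFS5 in Dec_Sam against Ctrl to 0.20 (adjusted p = 0.038). In Dec_Sam against Dec, 36 members were higher with no filter (4.84% of all genes), and 2 were lower by DESeq2 (8.65%). Leaving out 1 library gave 5 to 45 higher and 1 to 3 lower members there. The causes were not tested. Replicate numbers are shared between groups, but same-numbered libraries did not all deviate together (r = -0.017 to 0.233), so they were not taken as pairs. Between Dec and Dec_Sam, each library did correlate best with its own number (r = 0.233, 0.036 and 0.229), a hint from the data and not from the design. With the replicate block, 35 members in place of 19 were higher in Dec_Sam than in Dec, as were 9.53% of all genes in place of 7.67%. At this depth, isoforms with few counts had the widest errors.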
